A study of Homo sapiens with 5 samples.

Results

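The genes described here are those of 3 families of developmental transcription factors that lay nearest to H2A-K130ac peaks in C4-2B cells. Members were the genes whose symbol is SOX or PAX followed by a number, or FOX followed by 1 letter and a number, in the annotated peak lists of both C4-2B libraries, with FOXA1 left out. They came to 58 genes, namely 17 SOX, 32 FOX and 9 PAX genes, of the 18339 genes named in the lists. H2A-K130ac is acetylation of histone H2A at lysine 130, and the peaks are regions enriched for it over input in ChIP-seq (chromatin immunoprecipitation followed by sequencing). C4-2B is a human prostate cancer cell line, and the study uses it as such, although the sample labels name breast cancer. 1 sample came from cells given abiraterone, a drug that blocks androgen synthesis at the enzyme CYP17A1, and 1 from cells given Romidepsin, an inhibitor of histone deacetylases. Both samples carry the treatment text of another line, VCaP (0.5 µM Romidepsin), and the dose and time for these 2 libraries are not given in the sources used here. The only input among the 5 samples is labelled VCaP, and no C4-2B input is listed. With a single sample and peak list for each drug and no untreated C4-2B library in use, no test between the drugs was possible. The values describe these 2 lists. The study's reporting summary states that ChIP-seq samples were run in duplicate, but the sources used here do not say if duplicates were merged. The number of reads behind a peak is not in the lists, and peak lists carry no expression against which the cell type could be checked.

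SOX proteins bind DNA through an HMG box and bend it, FOX proteins bind through a forkhead domain and several of them can open closed chromatin, and PAX proteins bind through a paired domain. Members act in many tissues, from pluripotency and neural fate (SOX2) to chondrocytes and prostate epithelium (SOX9), insulin and stress signalling (FOXO1, FOXO3), speech-related brain circuits (FOXP2) and eye formation (PAX6). Several of them, such as SOX2 and SOX9, lie in wide stretches without other genes and are controlled by distant enhancers.

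Each peak had been assigned by the authors to the gene of the nearest transcription start site, which is what "a peak of a gene" means below. The abiraterone list assigned 365 of its 67806 annotated peaks to members (0.538%, exact 95% binomial interval 0.485 to 0.596%), and the Romidepsin list 526 of 91398 (0.576%, 0.527 to 0.627%). The Romidepsin list was 1.35 times as long as the abiraterone list, and members had 1.44 times as many peaks in it. By family, SOX genes had 171 and 198 peaks, a ratio of 1.16. FOX genes had 172 and 274, a ratio of 1.59, and PAX genes 22 and 54, a ratio of 2.45. SOX genes made up 46.8% of the member peaks under abiraterone (41.6 to 52.1%) and 37.6% under Romidepsin (33.5 to 41.9%), and the PAX share was 6.03% (3.82 to 8.98%) and 10.3% (7.81 to 13.2%). All intervals cover counting error only, and peaks of neighbouring positions are not independent.

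A peak in at least 1 of the lists was required to be named at all, for members as for other genes. Under abiraterone 50 members had a peak (86.2%, against 74.1% of all named genes) and under Romidepsin 56 (96.6%, against 89.7%). Both lists held a peak of 48 members (82.8%, 70.6 to 91.4%), against 63.8% of all named genes. FOXJ3 and PAX3 had peaks only in the abiraterone list, with 2 each, and they were 3.45% of the members (0.420 to 11.9%), against 10.3% of all named genes. The 8 members named only in the Romidepsin list (13.8%, 6.15 to 25.4%, against 25.9%) were FOXJ1, SOX8, FOXR1, PAX8, SOX10, FOXC2, FOXS1 and FOXN1. Of these, FOXJ1, a regulator of motile cilia, had 5 peaks and SOX8 had 3. The 5 peaks of FOXJ1 lay 9092 to 25285 bp upstream of its start, within the neighbouring RNF157-AS1 and RNF157 genes. SOX10, a neural crest and melanocyte factor, had 2 peaks, both in an intron of POLR2F, and PAX8, a thyroid and kidney factor, had 2. A further 14 family genes of the RefSeq gene table, among them FOXM1, the mitotic forkhead factor, were named in neither list as used here.

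**Figure D1:**
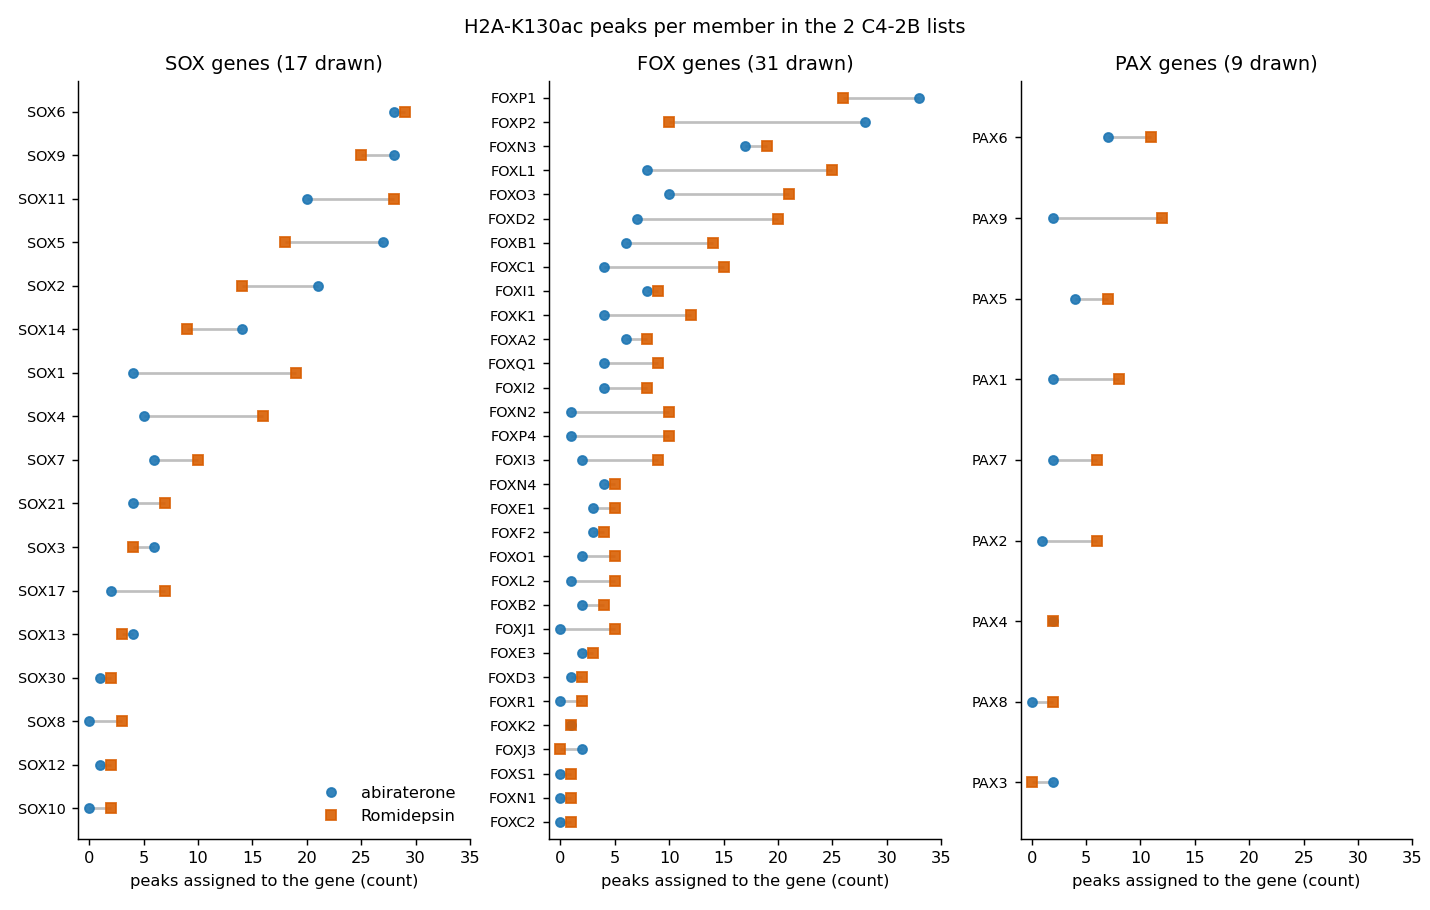
Number of H2A-K130ac peaks assigned to the members (x axis, count; 1 FOX gene is not drawn) under abiraterone (circles) and Romidepsin (squares), 1 peak list each, by family. FOXP1 reaches 33 under abiraterone and SOX6 29 under Romidepsin, and for PAX4 and FOXK2 the square covers the circle because the counts are equal.

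The peaks were spread unevenly over the members. The median member had 3.5 peaks under abiraterone and 7 under Romidepsin, against 2 and 3 over all named genes. Under abiraterone, the 8 members with most peaks were FOXP1 (33), SOX6, SOX9 and FOXP2 (28 each), SOX5 (27), SOX2 (21), SOX11 (20) and FOXN3 (17), which together held 55.3% of the member peaks. Under Romidepsin, the leading members were SOX6 (29), SOX11 (28), FOXP1 (26), SOX9 and FOXL1 (25 each), FOXO3 (21), FOXD2 (20), and FOXN3 and SOX1 (19 each). There, the first 8 held 36.7% of the member peaks. At the low end, 8 members had a single peak under abiraterone and 4 under Romidepsin.

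How many peaks a gene is assigned depends on how far its neighbours lie, so peaks within 500 kb of each gene's start were also counted whatever gene they were assigned to, a measure chosen after the data had been seen. Members had a median of 23.5 such peaks under abiraterone, against 23 over all named genes, and 39.5 under Romidepsin, against 36. Within the same window lay the starts of a median of 6 other named genes for members, 4 for SOX genes and 10 for all named genes. SOX2 had 47 peaks in its window under abiraterone, the highest number among the members after PAX4 with 49, and 26 under Romidepsin. SOX9, with 27 and 40 peaks in its window, had 1 other gene start there.

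SOX genes are described by their subgroups. The SoxD genes SOX5, SOX6 and SOX13, which act in cartilage, neurons and glia, held 59 peaks under abiraterone and 50 under Romidepsin. SOX6 had 28 and 29 peaks, of which 22 and 15 lay within the gene's own limits. SOX5 had 27 and 18, of which 15 and 5 lay within the gene. Among the SoxC genes, which act in neuronal and mesenchymal progenitors, SOX11 had 20 and 28 peaks, SOX4 5 and 16, and SOX12 1 and 2. All 16 Romidepsin peaks of SOX4 lay upstream of it, between 54870 and 261627 bp from its start. SOX4 had 0 peaks within 10 kb of its start in either list. In the SoxE group, SOX9 had 28 peaks under abiraterone and 25 under Romidepsin, in both lists reaching far upstream, to 917701 and 884242 bp. None of these 53 peaks lay within 10 kb of the SOX9 start.

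Among the SoxB1 genes, which maintain neural and pluripotent progenitors, SOX1 had 4 peaks under abiraterone and 19 under Romidepsin, SOX2 21 and 14, and SOX3 6 and 4. All 21 abiraterone peaks of SOX2 lay downstream of its start. The peak of highest fold in the whole Romidepsin list was a distal intergenic peak of SOX2, on chromosome 3 at 181570625 to 181570807 (hg19), 140913 bp downstream of the start. Its fold over the control was 10.5 and its −log10 q-value 11.3, and no other Romidepsin peak matched either value. In the abiraterone list, 2 of the 5 member peaks of highest fold were also those of SOX2. One lay at 231817 bp (fold 6.55) and the other at 12266 bp in an intron of the SOX2-OT gene (fold 5.63). Folds were not compared between the lists, because they were not normalized between libraries.

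**Figure D2:**
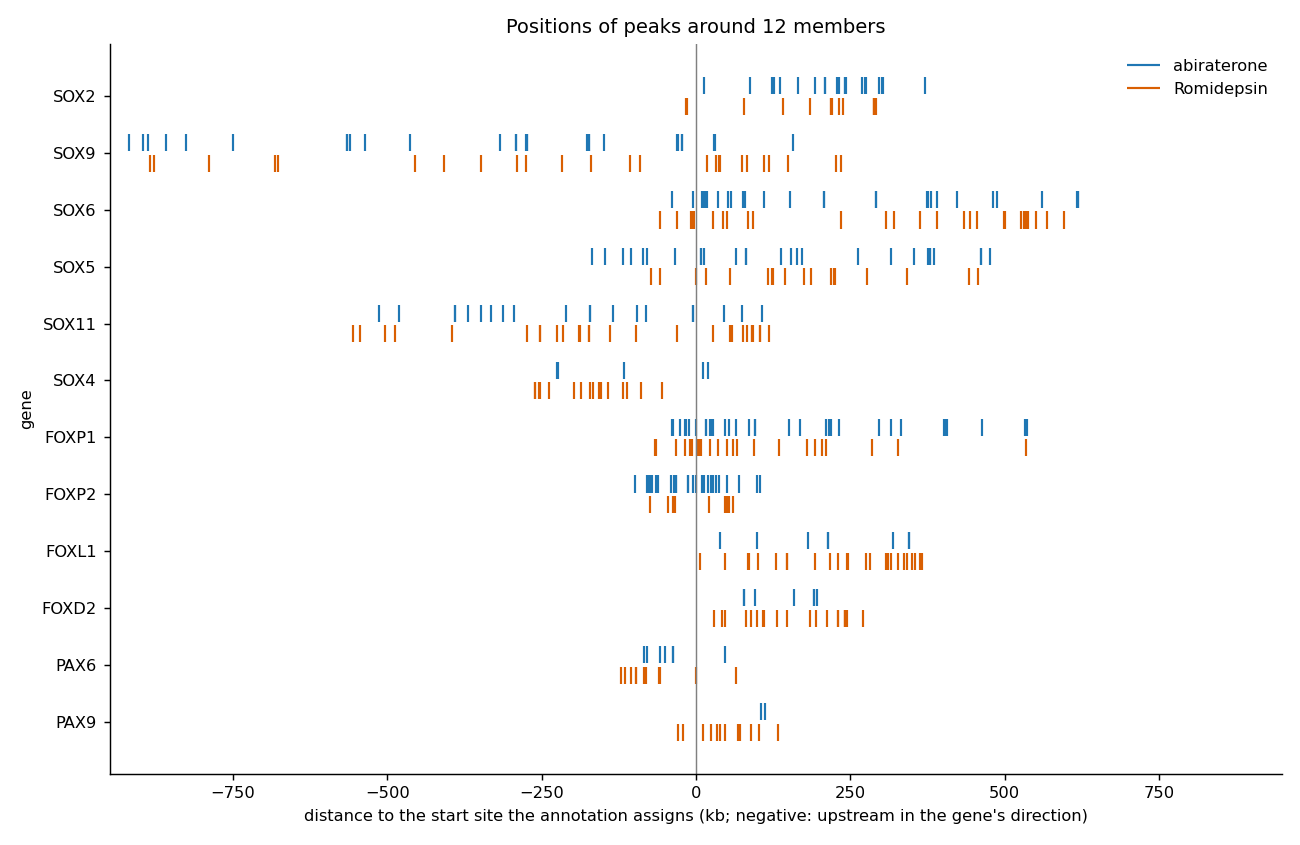
Position of every peak assigned to 12 members relative to the start site that the annotation gives it (x axis, kb, negative upstream in the direction of the gene), with abiraterone peaks in the upper and Romidepsin peaks in the lower row of each gene. SOX4 peaks under Romidepsin lie upstream, FOXL1 and FOXD2 peaks lie downstream, and SOX9 peaks reach to 917701 bp upstream.

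In the FOX family the FOXP genes, which act in lung, brain and lymphocytes, held 62 peaks under abiraterone and 46 under Romidepsin. FOXP1 had 33 and 26. FOXP2 had 28 and 10, of which 20 and 5 lay within the gene, while FOXP4 had 1 and 10. The FOXO genes, effectors of insulin signalling, had 12 and 26 peaks. FOXO3 had 10 and 21, with 2 and 10 of them within the gene, and FOXO1 had 2 and 5. FOXA2, an endoderm factor, had 6 and 8 peaks, all upstream of it and none within 10 kb. FOXN3 had 17 and 19.

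Some FOX genes are neighbours, and their peaks were divided among them by distance. FOXQ1, FOXF2 and FOXC1, whose starts lie within 298 kb of each other on chromosome 6, had 11 peaks under abiraterone and 28 under Romidepsin. FOXC1, which acts in eye and vessel formation, had 4 and 15 of these, and 4 and 9 lay in introns of the adjacent GMDS gene. FOXC2 and FOXL1, with starts 11.3 kb apart on chromosome 16, had 8 and 26. All but 1 of the 26 were FOXL1 peaks, and every FOXL1 peak lay downstream of the pair. FOXE3 and FOXD2, 19.9 kb apart on chromosome 1, had 9 and 23.

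The PAX genes had few peaks under abiraterone. PAX1 and PAX9, factors of the vertebral column and pharyngeal pouches, had 2 each there, and 8 and 12 under Romidepsin. For PAX9, 2 and 9 peaks lay in introns of SLC25A21. PAX2, PAX5 and PAX8, the group of kidney, B cell and thyroid factors, had 1, 4 and 0 peaks under abiraterone and 6, 7 and 2 under Romidepsin. PAX6 had 7 and 11 peaks, most of which lay upstream, 2 and 7 of them in introns of RCN1 and 1 in each list in ELP4. Its peak in RCN1 at 31954828 to 31955467 on chromosome 11 (hg19) had the second-highest member fold in the Romidepsin list, 6.83.

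To see which members leaned to a list, the 32 members with at least 10 peaks over both lists were scaled by the lengths of the lists, again a measure chosen after the data had been seen. At least 2-fold more peaks under Romidepsin were found for 11 of them (34.4%, 18.6 to 53.2%), against 16.4% of the 4716 named genes with as many peaks. These were, in order of the ratio, FOXN2, FOXP4, PAX9, SOX1, FOXI3, PAX1, FOXC1, SOX4, FOXL1, FOXK1 and FOXD2. None of these 11 had a Romidepsin peak with a −log10 q-value of at least 2, which 2.73% of all Romidepsin peaks had. Under abiraterone, where 24.9% of all peaks had such a value, SOX4 had 3 such peaks. FOXC1 and FOXL1 had 2 each, SOX1, FOXI3, PAX1 and FOXK1 had 1 each, and FOXN2, FOXP4, PAX9 and FOXD2 had 0. The lean to Romidepsin thus rests on peaks below that minimum. At least 2-fold more under abiraterone were found for 6 (18.8%, 7.21 to 36.4%), against a background of 17%, among them FOXP2, SOX14, SOX2, SOX5 and SOX3. FOXP2 leaned most, with 3.77 times as many abiraterone as Romidepsin peaks after scaling. The ratio of the lists was not the same on every chromosome, however, and ran from 0.784 on chromosome 3 to 2.26 on the X chromosome. When peaks were scaled by those of the gene's own chromosome, 8 members still leaned to Romidepsin (25%, 11.5 to 43.4%, against 15.4% of the 4716 genes) and 2 to abiraterone (6.25%, 0.766 to 20.8%, against 13.6%). Both of these intervals include the share of all genes. PAX1 (1.85), SOX4 (1.99) and FOXL1 (1.74) then fell short of 2-fold. FOXP2 had 2.83 times and SOX3, on the X chromosome, 3.38 times as many abiraterone peaks, while SOX2 and SOX14, on chromosome 3, had 1.18 and 1.22 times as many. SOX5 had 1.74 times as many. Among the 15 members with at least 20 peaks, 4 leaned to each list at the first scaling, against 11% of the 2096 named genes with as many peaks for Romidepsin and 15.6% for abiraterone. What part the chromosome differences had in these counts was not tested.

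**Figure D3:**
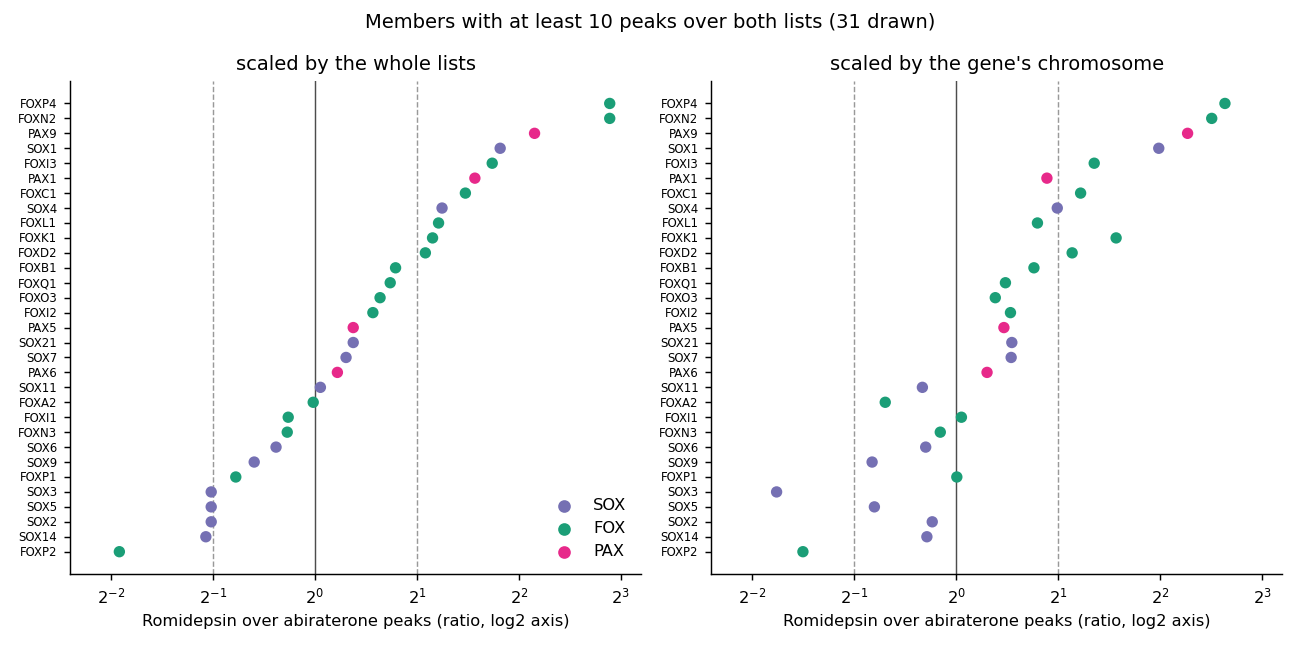
Ratio of Romidepsin to abiraterone peaks (x axis, log2 scale) for the members with at least 10 peaks over both lists (1 is not drawn), scaled by the whole lists on the left and by the peaks of the gene's own chromosome on the right, with genes in the same order. Dashed lines mark 2-fold, and SOX2 and SOX14 move from just beyond the left line to within it.

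Member peaks were seldom at promoters. The annotation labels a peak as promoter within 3 kb of a start site. Under abiraterone 13 member peaks had this label (3.56%, 1.91 to 6.01%), against 7.58% of all peaks. Under Romidepsin there were 16 (3.04%, 1.75 to 4.89%), against 8.85%. In both lists the upper end of the interval lay below the share of all peaks. Distal intergenic peaks were 60.3% of the member peaks under abiraterone (55.1 to 65.3%) and 68.1% under Romidepsin (63.9 to 72.0%), against 48.4% and 48.0% of all peaks. Introns held 34.2% (29.4 to 39.4%) and 25.3% (21.6 to 29.2%), against 39.6% and 37.9%. The families differed in this. Distal intergenic peaks were 63.2% and 75.8% of the SOX peaks and 59.9% and 70.1% of the FOX peaks. Of the PAX peaks they were 40.9% (20.7 to 63.6%) and 29.6% (18.0 to 43.6%). Introns held 50.0% (28.2 to 71.8%) and 57.4% (43.2 to 70.8%) of the PAX peaks. Promoters held 4.55% (0.115 to 22.8%) and 7.41% (2.06 to 17.9%) of them.

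**Figure D4:**
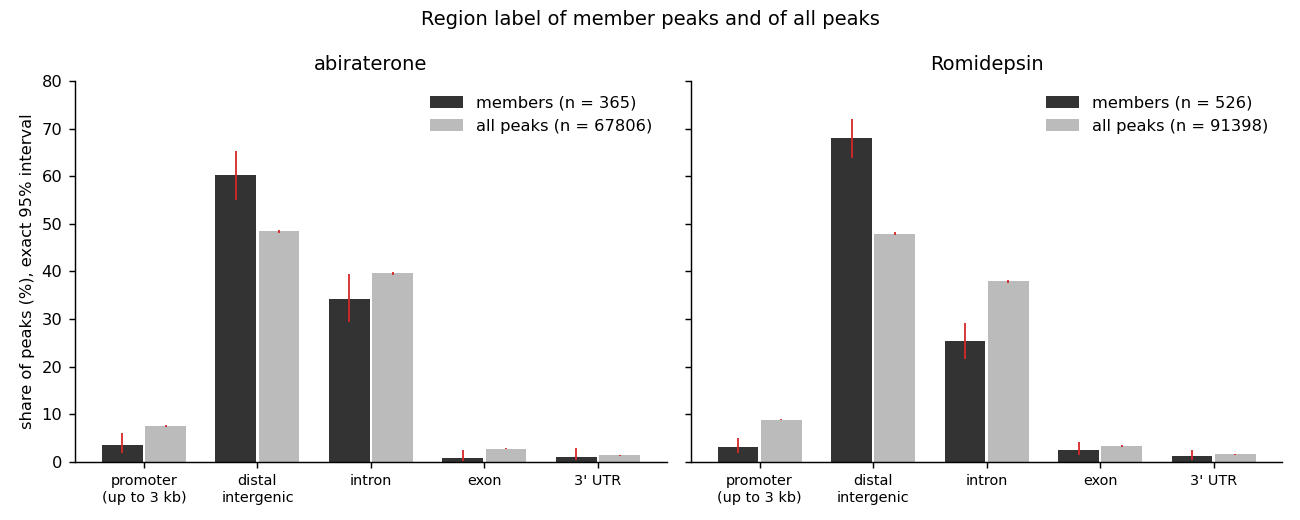
Share of peaks (y axis, %) with each region label among member peaks (dark) and all peaks (grey) of the 2 lists, with exact 95% binomial intervals as red bars. With the 3 families pooled, member peaks are more often distal intergenic (60.3% and 68.1%) and less often at promoters (3.56% and 3.04%) than all peaks. PAX peaks alone, not drawn apart, are distal intergenic in 40.9% and 29.6%.

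Counted by genes, the shares lay nearer to those of all genes. A promoter peak was present for 10 of the 58 members under abiraterone (17.2%, 8.59 to 29.4%), against 21.1% of all named genes. Under Romidepsin there was one for 15 (25.9%, 15.3 to 39.0%), against 32.7%. Both intervals include the share of all genes. A peak within 10 kb of a start was found for 21 members under abiraterone (36.2%, against 42.8%) and for 33 under Romidepsin (56.9%, against 60.8%). FOXN4, FOXP1, SOX12 and SOX13 had a promoter peak in both lists (6.90%, 1.91 to 16.7%, against 7.53% of all named genes). These peaks shared no base, and the nearest pairs were 107 bp apart at SOX12 and 457 bp apart at FOXN4. Peaks labelled as within 1 kb of a start belonged under abiraterone to FOXP1, FOXP2 and SOX7 (5.17%, against 9.89%), and under Romidepsin to FOXI2, FOXR1, PAX6, FOXN4, SOX5, PAX4 and SOX17 (12.1%, against 15.2%). None of these members had one in both lists, as 1.9% of all named genes did. None of these Romidepsin peaks within 1 kb had a −log10 q-value of at least 2, which 2.73% of all Romidepsin peaks had. Those of FOXP1, FOXP2 and SOX7 under abiraterone did, as did 24.9% of all peaks there. Peaks across a start site itself, at distance 0, were those of FOXP1 and FOXP2 under abiraterone. The FOXP1 peak lay at an inner one of its 7 annotated starts (position 71408395, hg19), while its longest transcript started at 71542706. The FOXP2 peak had a fold of 4.75 and lay at the outermost of its annotated starts. For SOX7, the peak within 1 kb was measured from the start of its longest transcript, at 10697299 (hg19). The other annotated start of SOX7 was at 10588022, more than 50 kb from this peak at 10698103 to 10698683.

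SOX7, an endothelial factor, had the member peak of highest fold in the abiraterone list, 804 bp upstream of its start, where the fold was 8.50 and the −log10 q-value 10.7. The next was FOXL2, an ovarian factor, whose only abiraterone peak lay 80397 bp from its start with a fold of 8.06. An intron of SOX6 held the third, with a fold of 6.61. In the Romidepsin list, SOX2 and PAX6 were followed by FOXP2 (fold 6.73, 36975 bp upstream) and by FOXQ1 and SOX7 (6.02 each).

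The promoter windows of 4 members with a single annotated start are shown, to give the sequence around the starts of genes whose nearby or strongest peaks are described here. SOX2 has the peak of highest Romidepsin fold, FOXI2 a Romidepsin peak 882 bp downstream, SOX12 promoter peaks in both lists (2104 bp upstream under abiraterone and 2553 bp under Romidepsin), and FOXD3 an abiraterone peak 1267 bp upstream. The windows are those of RefSeq in GRCh38.p14, from 250 bases before to 50 after the start, 5′ to 3′ in the direction of the gene. The peaks and their distances are in hg19 and counted from the starts of its UCSC transcripts, which were not matched to the RefSeq starts and can differ from them. They are chr3:181711675-181711974, chr10:127736935-127737234, chr20:325302-325601 and chr1:63322317-63322616, all on the plus strand. Capitals mark matches on either strand to TGTTTAC (forkhead), ACAAT or ACAAAG (SOX), CACGTG (E-box) and TCACNCCAC (sterol regulatory element core), which are descriptions of letters and not binding sites. Each of the 4 windows shown holds such a match. FOXB2, FOXI1, PAX7 and SOX21 also have a single annotated start and a promoter peak in 1 list. Their windows hold 0 matches to any of these motifs and are not shown.
SOX2: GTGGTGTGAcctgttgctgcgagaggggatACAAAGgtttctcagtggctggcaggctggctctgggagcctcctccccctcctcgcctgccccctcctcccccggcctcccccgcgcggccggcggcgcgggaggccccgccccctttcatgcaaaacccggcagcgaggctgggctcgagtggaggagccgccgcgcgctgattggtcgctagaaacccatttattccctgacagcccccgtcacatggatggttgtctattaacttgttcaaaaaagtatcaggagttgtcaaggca
FOXI2: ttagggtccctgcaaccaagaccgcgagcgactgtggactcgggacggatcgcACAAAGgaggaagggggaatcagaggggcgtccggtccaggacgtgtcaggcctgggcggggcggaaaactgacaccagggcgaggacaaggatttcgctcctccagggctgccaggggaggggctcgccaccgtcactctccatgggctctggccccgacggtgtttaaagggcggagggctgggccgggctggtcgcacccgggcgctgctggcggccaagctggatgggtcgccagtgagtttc
SOX12: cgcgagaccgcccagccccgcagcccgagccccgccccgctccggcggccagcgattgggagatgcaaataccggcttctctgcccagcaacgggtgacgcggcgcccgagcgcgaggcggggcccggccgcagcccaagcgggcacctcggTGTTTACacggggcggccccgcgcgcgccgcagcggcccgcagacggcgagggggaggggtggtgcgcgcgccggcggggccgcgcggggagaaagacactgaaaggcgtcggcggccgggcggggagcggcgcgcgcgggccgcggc
FOXD3: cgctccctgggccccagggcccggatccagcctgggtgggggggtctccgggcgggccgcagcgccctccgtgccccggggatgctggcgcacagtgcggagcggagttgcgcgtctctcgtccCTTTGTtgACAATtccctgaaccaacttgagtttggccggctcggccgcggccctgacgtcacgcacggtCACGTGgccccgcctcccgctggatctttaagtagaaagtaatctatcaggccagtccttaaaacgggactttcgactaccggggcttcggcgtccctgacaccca

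The SOX2 and FOXI2 windows hold 1 match each to ACAAAG, and SOX2 a match to TCACNCCAC at its upstream end. The SOX12 window holds the forkhead letters, and that of FOXD3 holds both SOX motifs and the E-box. Windows were found for 42 of the 58 members, 69 in all. Of these, 4.35% hold TGTTTAC, against 3.42% of all 35116 windows. The shorter SOX motif is in 30.4% against 27.4% and the longer in 18.8% against 16.1%. The E-box is in 4.35% against 7.26%, and the sterol regulatory element core in 4.35% against 1.13%. Each share of 4.35% is 3 member windows. Several windows can belong to 1 gene, as for PAX6 and FOXP1, so they are not independent. No difference between members and all windows is read from these shares. The median G and C content was 63.7% in the member windows and 58.7% in all windows.

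The distance to the start site was longer for members than for the lists as wholes. Its median was 80978 bp under abiraterone (quartiles 29450 and 216082), against 49465.5 bp over all peaks, and 80410.5 bp under Romidepsin (28882.8 and 170380), against 40628.5 bp. More than 50 kb away lay 64.1% of the member peaks under abiraterone (59.0 to 69.0%), against 49.7%, and 62.9% under Romidepsin (58.6 to 67.1%), against 45.3%. SOX peaks were the farthest, with medians of 152949 and 126558 bp. FOX peaks had medians of 62774.5 and 60041 bp and PAX peaks of 37092 and 47205.5 bp. The PAX median was below that of all peaks under abiraterone (22 peaks) and above it under Romidepsin (54 peaks). Within the limits of the member's own gene lay 99 of the 365 abiraterone peaks (27.1%, 22.6 to 32.0%) and 99 of the 526 Romidepsin peaks (18.8%, 15.6 to 22.4%).

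**Figure D5:**
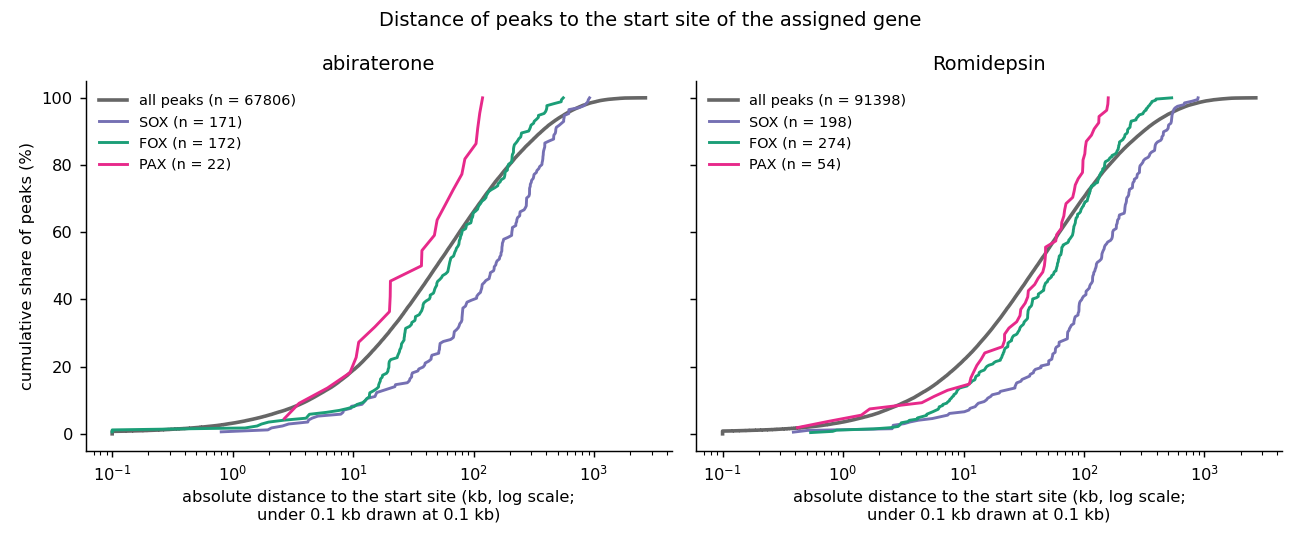
Cumulative share of peaks (y axis, %) by absolute distance to the start site (x axis, kb, log scale) for SOX, FOX and PAX peaks and for all peaks of each list. Over most of its length the SOX curve lies to the right of the others, with medians of 152949 bp under abiraterone and 126558 bp under Romidepsin.

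Of the abiraterone member peaks, 12 were overlapped by a Romidepsin peak by at least 1 base (3.29%, 1.71 to 5.67%), against 4.04% of all abiraterone peaks. Of the Romidepsin member peaks, 12 were overlapped in turn (2.28%, 1.18 to 3.95%), against 2.90%. Both intervals include the share of all peaks, so no difference from the lists was detectable with 12 peaks. They belonged to 10 members, 17.2% of the 58 (8.59 to 29.4%), against 11.6% of all named genes in the abiraterone list and 11.6% in the Romidepsin list. The widest, with 607 bp shared, lay upstream of PAX6 in an intron of RCN1, on chromosome 11 at 31924223 to 31924829 in the abiraterone list and 31924162 to 31925185 in the Romidepsin list (hg19). FOXK1 followed with 504 bp, upstream of the gene, and SOX6 with 380 bp, in an intron of its own. FOXN3 shared 268 and 125 bp at 2 places, SOX9 232 bp at 275843 bp upstream, FOXP2 172 bp and a second PAX6 site 125 bp. FOXP4, FOXI1 and FOXI3 shared 113, 106 and 105 bp. 0 of these peaks was at a promoter.

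Most member peaks of both lists had a q-value above 0.01. The median −log10 q-value was 1.57 under abiraterone and 0.717 under Romidepsin, for member peaks and for all peaks alike. A −log10 q-value of at least 2, that is, a q-value of at most 0.01, was carried by 110 of the abiraterone member peaks (30.1%, 25.5 to 35.1%), against 24.9% of all peaks. In the Romidepsin list it was carried by 18 (3.42%, 2.04 to 5.35%), against 2.73%. At least 1 such peak was present for 34 members under abiraterone (58.6%, 44.9 to 71.4%), against 40.4% of all named genes, and for 14 under Romidepsin (24.1%, 13.9 to 37.2%), against 11.4%. Members also had more peaks per gene, as given above, and the part of this in the shares was not tested. In the abiraterone list FOXP1 had most of them (13), followed by SOX6 (11) and FOXP2 (10). In the Romidepsin list FOXI1, an inner ear and kidney factor, had 3, and SOX6 and FOXP2 had 2 each.

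Partners of these families were counted in the same way, from a list of 19 genes that holds EYA, DACH and other genes of the PAX network, POU factors that pair with SOX proteins, and the TLE co-repressors. Of these, 17 had a peak under abiraterone and 17 under Romidepsin, with 16 in both lists, and POU5F1 had none. Of all named genes, 74.1% had a peak under abiraterone, 89.7% under Romidepsin and 63.8% in both. Unlike the named genes, the 19 were not required to have a peak in either list. TLE4 had 49 and 52 peaks and TLE1 36 and 41, more than any member, while TLE3 had 13 and 33 and EYA2 3 and 15. As other families of developmental factors, TBX genes had 99 and 120 peaks, POU genes 81 and 103, GATA genes 32 and 55, and HOX genes 15 and 28. Members were not alone in having distant peaks. The median distances under abiraterone and Romidepsin were 137325 and 124686 bp for TBX genes, 59675 and 97658 bp for POU genes, 195016 and 137432 bp for the partners, and 595802 and 184937 bp for GATA genes. HOX peaks lay closer, with medians of 6995 and 3717 bp. Promoters held 2.02% and 3.33% of the TBX peaks, 4.94% and 1.94% of the POU peaks and 2.41% and 1.23% of the partners' peaks. They held 3.13% and 3.64% of the GATA peaks, but 33.3% and 39.3% of the HOX peaks, against 7.58% and 8.85% of all peaks.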

How the data were processed

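H2A-K130ac ChIP-seq peaks from C4-2B cells were analysed, 1 list for abiraterone and 1 for Romidepsin; the 3 VCaP samples were not analysed here. The submitters' processing notes name MACS2. Each peak's fold over the control (a ratio) and its −log10 p- and q-values were deposited by the authors as their peak caller gave them, and the authors' annotation gave each peak a region label, the nearest gene and a distance to its start. The lists hold narrow peaks called over input, while the study's methods describe broad calls against the vehicle. No input of C4-2B cells is among the samples. The notes name hg38, but the last Romidepsin peak on chromosome 1 ends at 249191832, beyond that chromosome's end in GRCh38, and the transcript identifiers are of hg19, so coordinates were taken as hg19. The annotated tables lack the first peak of each list, and the conservative and optimal tables were identical. Sequences of the peaks themselves are not given, since no hg19 genome was used here.

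Members were found by symbol, and all 58 matched the RefSeq gene table. The members, lists and measures were chosen with earlier results of these data known. The text names the 8 members of most peaks in each list, those of the 5 member peaks of highest fold, those with overlapping peaks, those with at least 3 peaks in 1 list and 0 in the other, and a fixed set of known factors; further members are named beside counts of few genes, chosen after their values were seen. Shares carry exact (Clopper-Pearson) 95% binomial intervals, which cover counting error only. The study's methods state the sequencing depth of its libraries as a whole, but how many reads support a given peak cannot be read from the lists. No test was made. Values of some genes of the lists are not reported here, though the counts include them. Overlap and window counts were tested on simulated lists. The alternatives were a −log10 q minimum of 2, equal list sizes, other member, promoter and overlap rules, peaks within 100 kb, and leaving out the member of most peaks; scaling by chromosome, the windows and the 2-fold rule were added after seeing the data. Python 3.11.15, numpy 2.4.6, pandas 2.3.3, scipy 1.17.1 and matplotlib 3.10.9 were used.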

Additional observations from a re-analysis of the deposited data

How the results depend on the processing

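Of 80 alternative values, 46 stayed within the interval of the reported value (counts: within 1.5 times) and 34 moved. No paired analysis was possible because only a single peak list stands for each drug. Equal list sizes (67806 peaks, with 15153 Romidepsin peaks tied at the cut), wider symbols (which added FOXL2NB, a neighbour of FOXL2), the distance in place of the promoter label, and leaving out the member of most peaks moved no value so far. How many reads support a given peak is not in the lists.

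A −log10 q minimum of 2 left 110 and 18 member peaks under abiraterone and Romidepsin, 0.651% and 0.721% of the lists, 14 member genes under Romidepsin, and, of the 36 members with such a peak in either list, 33.3% with one in both. At promoters lay 5.56% of these Romidepsin peaks, more than 50 kb away lay 70.9% of these abiraterone peaks, and 0% in either list were overlapped (0 of 110, interval up to 3.30%, and 0 of 18, up to 18.5%). The PAX share was 2.73% under abiraterone and 16.7% under Romidepsin, and the FOX share 44.4% under Romidepsin. Peaks within 100 kb numbered 199 and 312, 0.444% and 0.484% of the peaks at that distance, with SOX shares of 34.2% and 26.0%, FOX shares of 56.8% and 59.9% and PAX shares of 9.05% and 14.1%. Promoters of 1 kb held 0.822% and 1.33%. Overlap of 50% of both peaks was found for 1.37% and 0.951%, and centres within 1 kb for 6.85% and 4.94%. The shares in this paragraph were not set beside those of all genes or all peaks under the same settings. No difference between members and the lists as wholes can be read from them.

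Among alternatives chosen after seeing the data, scaling by chromosome left 2 members leaning to abiraterone (13.6% of all genes did), a minimum of 20 peaks left 4 leaning to each list (all genes: 11% to Romidepsin and 15.6% to abiraterone), and windows of 100 kb held a median of 4 and 8 peaks for members, against 5 and 7 over all named genes.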
